A study of Caenorhabditis elegans with 2 samples.

Results

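Homeobox genes encode transcription factors that bind DNA through a homeodomain, and their promoters and gene bodies were examined here for ChIP-seq peaks of NHR-11, one of the many nuclear hormone receptors of Caenorhabditis elegans. The members were taken by name: every protein-coding gene of the Ensembl WBcel235 annotation whose symbol starts with ceh-, plus 20 named homeobox genes such as lin-39, unc-42 and mec-3. This gave 83 of 19973 nuclear protein-coding genes, 63 of them ceh- genes. The rule itself uses gene names only. Peaks are regions where DNA fragments recovered with a tagged protein pile up above a control. Both biological replicates were whole L2 larvae, males and females pooled, of strain OP305 (unc-119(ed3) III; wgIs305), which carries an integrated insertion of nhr-11 with an eGFP tag. The age of the animals is given as unknown, the labels do not name the cells in which the tagged receptor is made, and whole animals mix all cell types. There was 1 group, so no contrast between groups and no test between conditions could be made, and the comparisons are between the replicates and between homeobox genes and all genes.

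In C. elegans, homeodomain proteins set regional and cell identity. The Hox genes pattern the body along its length, and LIM, POU and paired-like genes act as selectors that fix the identity of single neuron classes. Other families serve the pharynx, the epidermis and the gonad, and many of these genes lie in wide intergenic regions with regulatory elements far from the gene start.

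Peak lists on build ce11 were used at 4 levels. The thresholded list, the authors' reproducible set, held 280 peaks, and the pooled list, made from both replicates before thresholding, held 13299. The unthresholded lists held 25831 peaks for replicate 1 and 27015 for replicate 2. These unthresholded lists include background by design, and the median minus log10 q-value of their peaks was 0.136 in the pooled list, 0.155 in replicate 1 and 0.207 in replicate 2. A promoter peak is one whose summit fell between 1000 bp before and 500 bp after any annotated transcript 5′ end of the gene. The signal of a peak is the caller's own value as deposited, so it was compared within a list only, by rank or by percentile among all genes. The lists hold no read counts, so depth is unknown. Of the thresholded peaks 26 were mitochondrial and could belong to no member.

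Homeobox genes had promoter peaks about as often as any other gene, and a single member, ceh-38, reached the thresholded list. In that list 1 of 83 homeobox genes had a promoter peak (1.2%), against 0.801% of all genes. In the pooled list 22 did (26.5%), against 24.7% of all genes. For 21 of these 22 the strongest pooled promoter peak had a minus log10 q-value under 1. This share was not counted over all genes. The median over all peaks of the pooled list was 0.136, so low values were not particular to homeobox genes. The count was 32 in replicate 1 (38.6%, against 40.4% of all genes) and 36 in replicate 2 (43.4%, against 39.7%). Peaks of both replicates that overlapped each other by at least 1 bp in the same promoter were found for 14 homeobox genes (16.9%, against 15.7%). No promoter peak in any of the 4 lists was found for 31 members (37.3%, against 40.8%), among them mec-3, unc-86, cog-1, mls-2, lim-4, lim-7 and vab-7. These shares lie close to the background in each list, so the counts do not set homeobox genes apart.

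**Figure D1:**
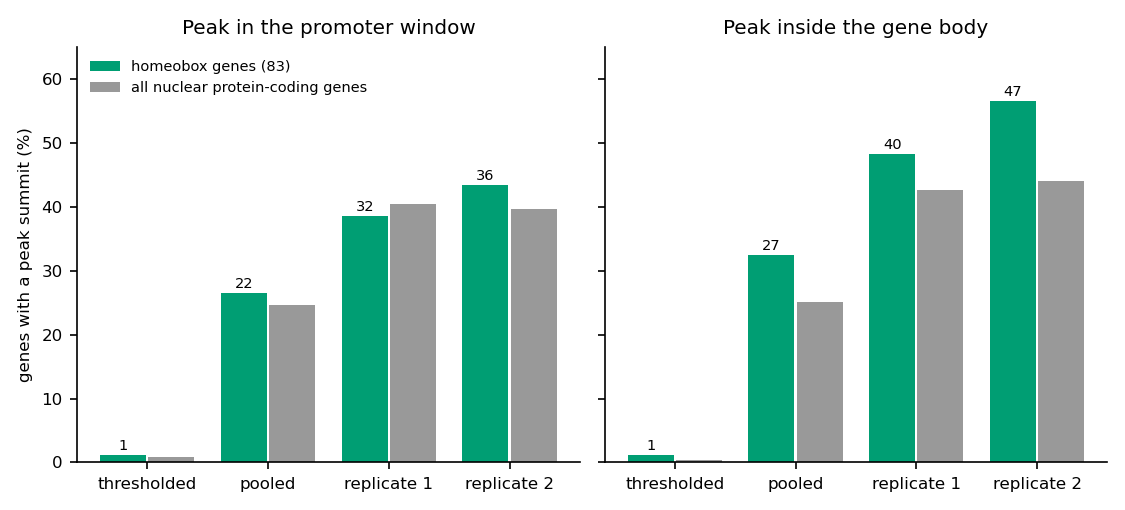
Share of genes with a peak summit in the promoter window (left) or inside the gene body (right), in percent, for 83 homeobox genes (green, with the number of genes above each bar) and all 19973 nuclear protein-coding genes (grey), in each of the 4 peak lists. In promoter windows the green and grey bars stand at similar heights, and in gene bodies the green bars are higher in all 4 lists.

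The bases under 5 member summits are shown for the thresholded peak of ceh-38, the strongest other pooled promoter peaks in unc-42, ceh-34 and ceh-83, and the strongest Hox promoter peak in egl-5. Each is the plus strand of ce11 from the RefSeq genome, 5′ to 3′, centred on the pooled summit, and the capitals mark the 5 bases centred on the summit. They lie at chrII:6951645-6951673 (ceh-38), chrV:9769156-9769216 (unc-42), chrV:5319277-5319337 (ceh-34), chrII:1736047-1736107 (ceh-83) and chrIII:7814201-7814261 (egl-5).
ceh-38: gcggccacactcTCCCTctccctgtggcc
unc-42: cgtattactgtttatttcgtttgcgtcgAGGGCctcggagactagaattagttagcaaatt
ceh-34: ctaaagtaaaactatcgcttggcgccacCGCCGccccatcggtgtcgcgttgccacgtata
ceh-83: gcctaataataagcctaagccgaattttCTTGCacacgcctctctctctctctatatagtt
egl-5: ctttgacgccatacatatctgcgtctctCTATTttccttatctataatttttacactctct
The ceh-38 stretch was 72.4% G and C and the ceh-34 stretch 57.4%, while those of unc-42 and ceh-83 were 41% each and that of egl-5 was 34.4%. These shares are over unlike lengths. The ceh-38 stretch has 29 bp and the others 61 bp, because windows that touched an untranslated exon were shortened.

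The promoter peak of ceh-38 (WBGene00000459) was the strongest among homeobox genes, and it ranked much higher in replicate 1 than in replicate 2. CEH-38 is a CUT homeodomain protein of the ONECUT type. Its pooled signal was 31.9, rank 166 of 280 in the thresholded list, with a minus log10 q-value of 2.77 (chromosome II, 6951444 to 6951873). The summit lay 2 bp upstream of the nearest of 11 annotated 5′ ends of ceh-38, in an untranslated exon of a longer transcript. It was also 359 bp upstream of malt-1, so the peak belongs to the promoter windows of both genes. In replicate 1 the peak had a signal of 24.3 and ranked 100 of 25831, and in replicate 2 it had 6.79 and ranked 3421 of 27015. Its minus log10 q-value was 2.91 in replicate 1 and 0.857 in replicate 2. Among all genes these are the 99.7th percentile in replicate 1 and the 92.4th in replicate 2, so both replicates place it in the top 10%. No short RNA gene lay within 500 bp of the summit.

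The unc-42 gene (WBGene00006778) showed the opposite order, with peaks along the gene in replicate 2 and none inside it in replicate 1. UNC-42 is a paired-like homeodomain protein that specifies command interneurons and other neurons. In replicate 2 a peak in its intron, 174 bp downstream of a 5′ end, had a signal of 21.25 and ranked 68 of 27015 with a minus log10 q-value of 2.79 (chromosome V, 9768944 to 9769419). No replicate 1 peak overlapped it. The only promoter peak of unc-42 in replicate 1 lay 325 bp upstream with a signal of 4.57 and ranked 20253 of 25831, and it overlapped another replicate 2 peak, of 8.63 (rank 1390). Replicate 2 had 5 summits inside the unc-42 gene body and replicate 1 had 0. Of the 280 strongest peaks of replicate 2, the promoter set held 1 homeobox gene, unc-42 (1.2%, against 0.786% of all genes). The same cut in replicate 1 also held 1, ceh-38 (1.2%, against 0.791%). In the pooled list the intronic unc-42 peak had a signal of 17.6, rank 1185 of 13299, with a minus log10 q-value of 0.968. It was not in the thresholded list.

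The 6 members next in pooled promoter signal, from 11.9 to 15.2, all stood far higher in the order of 1 replicate than in that of the other or had no overlapping peak in the other. The ceh-34 peak (sine oculis type, known for pharyngeal neuron identity) had a pooled signal of 15.2, with 10.03 in replicate 1 (rank 2142) and 2.82 in replicate 2 (rank 25784). Similarly ceh-83 had 15.05 in the pooled list, with 11.1 in replicate 1 (rank 1499) and 3.08 in replicate 2 (rank 22755). Both summits were intronic. The ceh-5 peak ran the other way, with a pooled signal of 13.45 and 11.3 in replicate 2 (rank 474). The replicate 1 peaks that overlapped it had 5.73 (rank 12352) at 842 bp upstream and 4.12 (rank 24319) at 563 bp upstream, and all lay in an intron of the gene ocrl-1. Peaks at ceh-2 (13.6, an Emx-like gene) and ceh-57 (12.2) overlapped a replicate 1 peak and no replicate 2 peak. The ceh-2 summit was the only one of the 29 pooled promoter peaks of homeobox genes within 500 bp of a short RNA gene, a tRNA gene. At ceh-89 the pooled signal was 11.9, with 9.22 in replicate 1 (rank 2901) and 3.16 in replicate 2 (rank 21903).

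The TALE class gene ceh-20 had a peak in both replicates, with summits just beyond the edge of the promoter window. CEH-20 is the Pbx-type partner of Hox proteins. A pooled peak with a signal of 19.5, rank 823 of 13299, had its summit 1114 bp upstream (chromosome III, 6978555 to 6978984), just outside the window. Its replicate 1 summit was 1039 bp upstream with a signal of 8.03 (rank 4644), and its replicate 2 summit 1078 bp upstream with a signal of 8.27 (rank 1645). A second pooled peak that overlaps it, with a signal of 11, had its summit 897 bp upstream and brought ceh-20 into the pooled count. The other pooled summits of members between 1000 and 1200 bp upstream were those of ceh-43, a Distal-less type gene, at 1002 bp with a signal of 13.95, ceh-27 at 1006 bp with 12.2, and vab-3 at 1115 bp with 9.65. The window edge of 1000 bp thus separated members with similar signals, such as ceh-43 at 13.95 outside and ceh-2 at 13.6 inside.

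The presence of a promoter peak in the replicates was split among homeobox genes much as among all genes. Both replicates had one, overlapping or not, for 17 members (20.5%, against 21.4% of all genes). It was in replicate 1 alone for 15 (18.1%, against 18.9%), in replicate 2 alone for 19 (22.9%, against 18.2%) and in neither for 32 (38.6%, against 41.4%). Among the 10% of genes with the highest promoter signal, replicate 1 held 10 homeobox genes (12%, against 10%) and replicate 2 held 8 (9.64%, against 10%). Only ceh-38 was in the top 10% of both replicates (1.2%), against 3.63% of all genes. Next were ceh-88, at the 89.5th percentile in replicate 1 and the 92.4th in replicate 2, and vab-3, at the 86.9th and 95.6th. VAB-3 is the Pax6 type protein that patterns the head. The ceh-88 summits were 168 bp upstream in replicate 1 and 761 bp upstream in replicate 2, and the peaks did not overlap. The vab-3 maxima were also at different places, 288 bp downstream in replicate 1 and 473 bp upstream in replicate 2. Unlike ceh-88, vab-3 had weaker promoter peaks that did overlap, of 4.49 in replicate 1 (rank 20925) and 3.8 in replicate 2 (rank 16053).

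The order of promoter signals among the members was not alike in the replicates. Over the 17 homeobox genes with a promoter peak in both, log2 signals gave Pearson r = -0.26 and Spearman rho = -0.41, against r = 0.41 and rho = 0.29 over the 4278 genes of the whole annotation with a peak in both. These are correlations across genes within the same pair of samples. Each value was the strongest promoter peak of the gene in that replicate. The peaks compared did not always overlap, as at unc-42, ceh-88 and vab-3, so the correlations do not measure agreement at shared sites. Leaving out ceh-38 and unc-42, which had the highest signals of replicate 1 and of replicate 2, gave r = -0.44 and rho = -0.50 over 15 genes. Of the 29 pooled promoter peaks of homeobox genes, 12 overlapped a peak of both replicates (41.4%, against 53.5% of the 5158 pooled promoter peaks of all genes). Another 8 overlapped a replicate 1 peak alone (27.6%, against 28.8%), 8 a replicate 2 peak alone (27.6%, against 15.2%) and 1 neither (3.45%, against 2.5%). None of these differences was tested.

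**Figure D2:**
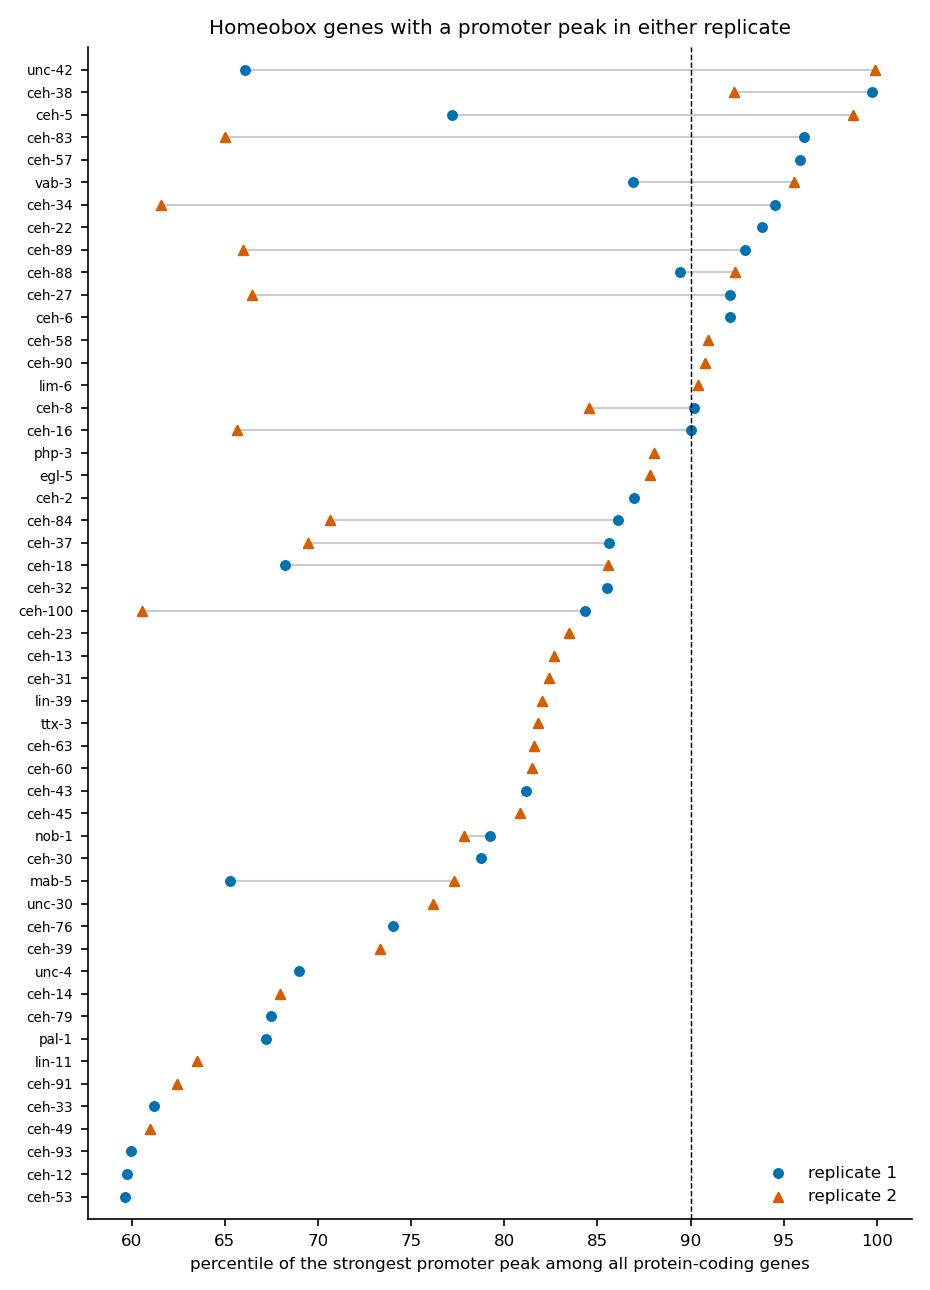
Each of the 51 homeobox genes with a promoter peak in either replicate, with the percentile of its strongest promoter peak among all nuclear protein-coding genes in replicate 1 (blue circles) and replicate 2 (orange triangles). A grey line joins the values of genes with a peak in both, and the dashed line marks the 90th percentile. Only ceh-38 has both symbols to the right of that line, while unc-42 stands at the 66.1st percentile in replicate 1 and the 99.9th in replicate 2. Genes without a peak rank as 0, so the lowest member signals stand at 59.65 (ceh-53, replicate 1) and 60.5 (ceh-100, replicate 2).

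The Hox genes, which assign identity along the body axis, had a promoter peak in replicate 2 in all 6 cases, where 39.7% of all genes had one, but none was in the top 10% of genes there. In replicate 1 only nob-1 and mab-5 had one (2 of 6, against 40.4% of all genes). In the pooled list egl-5, lin-39, nob-1 and mab-5 did (4 of 6, against 24.7%). Promoter peaks of both replicates that overlapped each other were found for nob-1 and mab-5 (2 of 6, against 15.7%). These counts rest on 6 genes and were not tested. The egl-5 gene, the Abdominal-B type Hox gene of the tail, had a pooled signal of 10.8 (rank 6221) at a summit 143 bp upstream in intergenic sequence. Replicate 2 gave it 5.72 (rank 5975), and replicate 1 had no overlapping peak. For lin-39, which acts in the midbody and the vulval precursors, the pooled signal was 9.61 (rank 9057), with 4.83 in replicate 2 (rank 9519). The pair of posterior genes php-3 and nob-1 differed in list. php-3 had a replicate 2 peak of 5.75 (rank 5849) alone, while nob-1 had 8.9 in the pooled list (rank 11215) and an overlapping peak of 6.01 in replicate 1 (rank 11034). The highest replicate 2 peak of nob-1, 4.34 (rank 12270), lay elsewhere, 63 bp downstream of a 5′ end. For mab-5, which guides posterior cell migration, the pooled peak of 8.37 ranked 13232 of 13299. The labial type gene ceh-13 had 4.92 in replicate 2 (rank 9103) and none in the other lists. The strongest of these replicate 2 peaks, php-3, stood at the 88.02nd percentile of all genes, and the lowest, mab-5, at the 77.3rd. Genes without a peak rank as 0. The lowest replicate 2 promoter signal of any member, 2.735 at ceh-100, thus still stood at the 60.5th percentile.

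The LIM, POU and paired-like classes, which hold many neuronal selector genes, had pooled promoter peaks in 1 of 7, 1 of 3 and 4 of 12 cases, against 24.7% of all genes. Of the LIM genes, which include the touch neuron gene mec-3 and the AIY interneuron gene ttx-3, the one with a pooled promoter peak was lim-6, with a signal of 9.37 and 6.26 in replicate 2 (rank 4493). None of the 7 had a promoter peak in replicate 1, and 4 had one in replicate 2 (lim-6, ttx-3, ceh-14 and lin-11), against 40.4% of all genes in replicate 1 and 39.7% in replicate 2. The ttx-3 peak had a signal of 4.795 (rank 9672). Of the 3 POU genes, ceh-18 had a weak pooled promoter peak of 8.53, ceh-6 had one of 8.83 in replicate 1 (rank 3347) and none in replicate 2, and unc-86, a determinant of touch neurons, had none. Of the 12 paired-like members, unc-42, ceh-8, vab-3 and ceh-37 had pooled promoter peaks. The retinal homeobox type gene ceh-8 had a pooled peak of 10.1. It overlapped peaks of 5.91 in replicate 1 (rank 11477) and 5.185 in replicate 2 (rank 7916). The highest replicate 1 promoter peak of ceh-8, 8.12 (rank 4470), lay elsewhere and overlapped no pooled or replicate 2 peak. The motor neuron genes unc-4 and unc-30 had weak peaks in opposite replicates, 4.85 in replicate 1 for unc-4 and 4.15 in replicate 2 for unc-30. Of the 6 CUT genes 1, ceh-38, had a pooled promoter peak (16.7%, against 24.7% of all genes).

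The remaining Antennapedia-related genes had pooled promoter peaks in 5 of 23 cases (21.7%, against 24.7% of all genes), namely ceh-2, ceh-5, ceh-16, ceh-22 and ceh-30. At ceh-16, the engrailed type gene of the seam epidermis, the pooled signal was 10.3, with 8.08 in replicate 1 (rank 4531) and 3.13 in replicate 2 (rank 22198). The pharyngeal muscle gene ceh-22 had 9.67 in replicate 1 (rank 2456), none in replicate 2 and 8.82 in the pooled list. ceh-27 had 8.84 in replicate 1 (rank 3336) at 978 bp upstream and 3.2 in replicate 2 (rank 21455) at 212 bp downstream. These 2 peaks did not overlap. pal-1, the caudal type gene, had a replicate 1 peak of 4.67 alone. Of the 3 sine oculis type members, ceh-34 and ceh-32 had pooled promoter peaks and ceh-33 did not, against the same 24.7%. The ceh-32 peak of 10.2 had its summit 3 bp downstream of the 5′ end and 7.02 in replicate 1 (rank 7116). Of 20 ceh- genes to which no class was assigned here, 3 had pooled promoter peaks (15%, against 24.7%), namely ceh-57, ceh-83 and ceh-89. Others were seen only in the separate lists, such as ceh-88, ceh-84 (7.12 in replicate 1 and 3.58 in replicate 2) and ceh-100 (6.8 in replicate 1 and 2.735 in replicate 2).

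Peaks inside gene bodies were somewhat more frequent among homeobox genes than among all genes, in genes that were also longer. In the pooled list 27 members had a summit in the gene body (32.5%), against 25.1% of all genes. The share was 48.2% in replicate 1 (40 members, against 42.7%) and 56.6% in replicate 2 (47 members, against 44%). In the thresholded list ceh-38 was again the single member (1.2%, against 0.441%). The median gene body was 3306 bp for homeobox genes and 2027 bp for all genes. Per length the pooled list held 133.6 gene-body peaks per Mb in homeobox genes and 125.4 per Mb in all genes. In replicate 1 there were 225.6 per Mb against 255.2 per Mb, and in replicate 2 302.8 per Mb against 271.4 per Mb. Within length classes the shares did not keep one direction: 1 of 24 homeobox genes of up to 2000 bp had a pooled body peak (4.17%, against 12% of all genes of that length), 10 of 31 from there to 4000 bp (32.3%, against 25.8%), 11 of 23 up to 8000 bp (47.8%, against 44%) and 5 of 5 above 8000 bp (100%, against 71.9%).

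**Figure D3:**
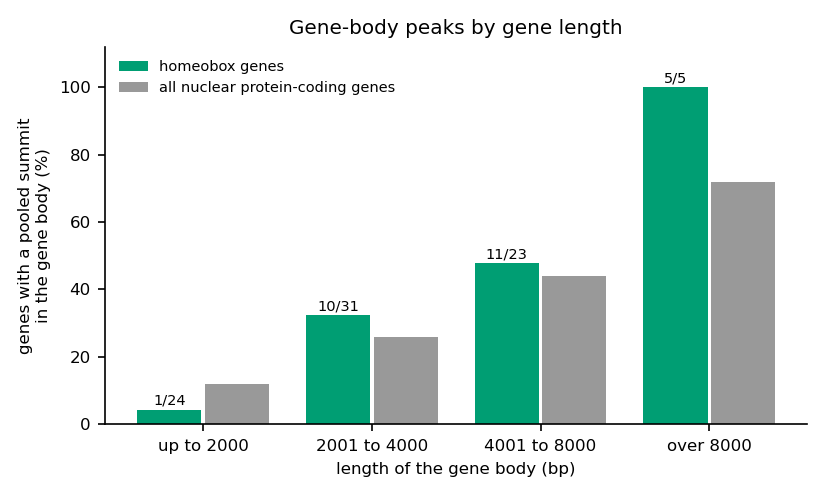
Share of genes with a pooled peak summit in the gene body, in percent, by length of the gene body in bp, for homeobox genes (green, with counts above the bars) and all nuclear protein-coding genes (grey). In both sets the share goes up with length, and the green bar is lower in the shortest class and higher in the other 3.

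Of 45 pooled gene-body summits in homeobox genes, 34 were intronic (75.6%, against 53.95% of the 8083 in all genes) and 4 were in coding exons (8.89%, against 31.4%). Introns made up 65.75% of the gene-body length of homeobox genes, against 53.7% over all genes. The members with the most pooled body peaks were ceh-18 with 6, lin-39 with 5, unc-42 with 4 and ceh-100 with 3. After them ceh-8, ceh-16, ceh-34 and ceh-57 had 2 each. Peaks that overlap each other were counted separately in these numbers, as in ceh-18, unc-42 and ceh-8, so the order depends on such calls. By chromosome, pooled promoter peaks were found for 3 of 10 homeobox genes on I (against 28% of all genes there), 3 of 15 on II (against 24%) and 6 of 16 on III (against 29.7%). They were found for 0 of 6 on IV (against 22.9%), 4 of 13 on V (against 20.6%) and 6 of 23 on X (against 26.7%).

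In ceh-18, a POU gene of the gonadal sheath, 2 of these peaks had a higher pooled signal than any pooled promoter peak of a homeobox gene other than that of ceh-38. That order did not hold within either replicate. The first lay in an intron 3776 bp from the start of the gene model, with a pooled signal of 18.7 (rank 950 of 13299; chromosome X, 3853806 to 3854235), 9.92 in replicate 1 (rank 2226) and 4.51 in replicate 2 (rank 11230). The second lay in an untranslated exon near the far end of the gene, with a pooled signal of 17.8 (rank 1135), 10.8 in replicate 1 (rank 1655) and 4.75 in replicate 2 (rank 9930). Both therefore overlapped a listed peak of each replicate and ranked higher in replicate 1. The minus log10 q-values were 0.890 and 1.145 in replicate 1, but only 0.270 and 0.316 in replicate 2. In lin-39 the strongest body peak, in an intron, had a pooled signal of 12.2 and 8.64 in replicate 1 (rank 3590), and no replicate 2 peak overlapped it. The lin-39 peak near the far end of the gene had 10.5 in the pooled list and 7.75 in replicate 2 (rank 2140), and no replicate 1 peak overlapped it. The second ceh-34 body peak, also intronic, had a pooled signal of 12.9, 7.93 in replicate 1 (rank 4829) and 6.03 in replicate 2 (rank 5060). Among the other members vab-7, the even-skipped type gene, had an intronic pooled peak of 13.8 with 10.3 in replicate 1 (rank 1968) and 4.19 in replicate 2 (rank 13225). An untranslated exon of ceh-8 held a replicate 1 summit of 17.49 (rank 294) and a replicate 2 summit of 7.16 (rank 2875). Both also lay in the promoter window of col-63. The pooled peak they overlapped, of 26.1 (rank 334), had its summit outside the ceh-8 gene body and was not counted.

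**Figure D4:**
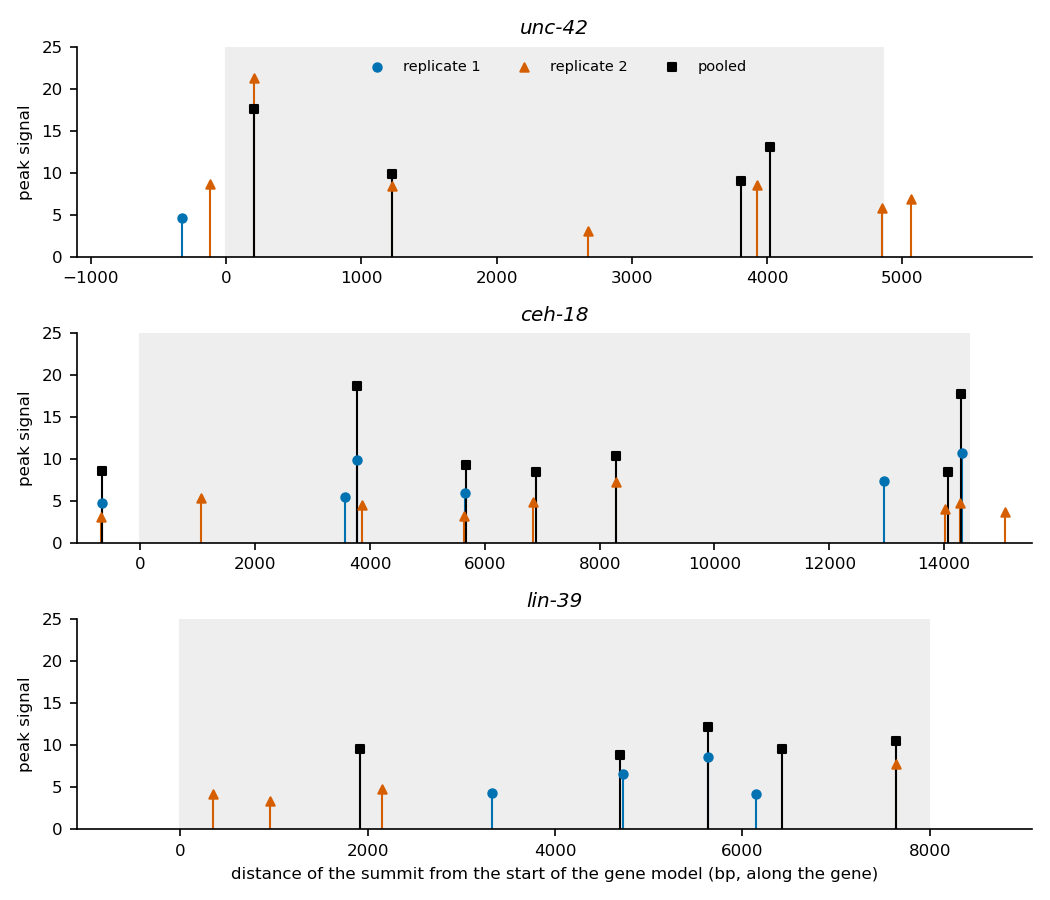
Peak summits along unc-42, ceh-18 and lin-39, with the distance from the start of the gene model in bp on the horizontal axis, the gene body shaded, and the deposited signal on the vertical axis (replicate 1 blue circles, replicate 2 orange triangles, pooled list black squares). Signal scales differ between lists. In unc-42 the replicate 2 summits run along the gene where replicate 1 has none, while the strongest ceh-18 peaks carry symbols of both replicates.

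A thresholded summit lay within 10000 bp of a 5′ end for 1 of 83 members, ceh-38 (1.2%), against 5.18% of all genes. The next nearest were those of ttx-3 at 10222 bp, ceh-90 at 12773 bp and ceh-54 at 13573 bp. The median distance ran the other way and was shorter for homeobox genes, at 118220 bp, against 166252 bp for all genes. Among pooled promoter peaks, 20 of 29 summits in homeobox genes were upstream of the nearest 5′ end (69%, against 73.5% of 6030 over all genes), and 7 of 29 lay within 200 bp of it (24.1%, against 32.6%).

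The short motifs searched were found at few member summits. In windows of 101 bp on both strands, AGGTCA, a core sequence bound by many nuclear receptors, occurred in 0 of 29 promoter windows of homeobox genes and in 2.73% of all 5158 pooled promoter peaks. The related AAGTCA was in 0 of 29 (against 4.67%) and AGTTCA in 3 of 29 (10.3%, against 5.95%). A homeodomain core, TAATTA, was in 1 of 29 (3.45%, against 4.17%) and a CUT type core, ATCGAT, in 1 of 29 (3.45%, against 3.63%). None of these 5 hexamers was in the 5 stretches printed above, and only TAATTA and ATCGAT read the same on both strands. The mean G and C content of the member windows was 35.2%, against 37.9% for all pooled promoter peaks. With 29 windows, several from the same gene, these are descriptions of the letters at the summits only.

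Of 16 further homeobox genes listed outside the naming rule, 6 had a pooled promoter peak (37.5%, against 24.7% of all genes). These were hmbx-1, dve-1, unc-62, tab-1, psa-3 and zfh-2. A thresholded promoter peak was found for 0 of the 16 (against 0.801% of all genes). The Meis type gene unc-62, whose product works with Pbx and Hox proteins, was the 1 of them in the top 10% of both replicates (6.25%, against 3.63% of all genes). It had a pooled signal of 11, 8.12 in replicate 1 and 7.05 in replicate 2. Beside the 26.5% of homeobox genes with a pooled promoter peak, the share was 26.4% among 269 nhr- genes and 22.6% among 53 fkh-, tbx- and hlh- genes. No difference between these families was tested.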

How the data were processed

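The samples were 2 biological replicates of eGFP-nhr-11 ChIP-seq from L2 larvae, and the files used were 4 peak lists on ce11. Unthresholded peaks were called by the authors per replicate and on both replicates together, from the alignments and a further file taken here to be the control, per the text files deposited beside them. The thresholded list was derived from these by irreproducible discovery rate (IDR). The control was not analysed here. Caller and aligner were not given in the sources used here. The deposited signal score of a peak is the caller's own and its scaling is not stated. The deposited −log10 q-value and the summit position in bp were used as they are. The 4 lists on ce10 were not used, since their coordinates cannot be set against the ce11 annotation without conversion. No ce11 peak ended beyond its chromosome.

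Genes and transcript 5′ ends came from Ensembl release 115 and sequence from RefSeq, both of assembly WBcel235. Every gene whose window held a summit was counted. A short RNA gene is one for a tRNA, snRNA, snoRNA, rRNA or miRNA. Percentiles rank the highest promoter signal over all 19973 genes, with 0 for genes without a peak. Classes came from a hand-written list, of whose symbols 1 was not in the annotation, and 20 ceh- genes were left without a class. Class counts cover only members taken by the naming rule, so homeobox genes outside it are in none of them. The members, classes and windows were chosen with earlier results of these data known. Genes were named by fixed rules: the thresholded member, the 10 highest pooled promoter signals, the Hox genes, the most gene-body peaks, the highest of each class, and the highest replicate signals without a pooled peak. Other names, such as the members just outside the window, were chosen after their values were seen. No set test or chance placement was used. Assignment was tested on simulated peaks. Python 3.11.15, pandas 2.3.3 and matplotlib 3.10.9 were used. Depth is unknown, so no interval is given.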

Additional observations from a re-analysis of the deposited data

How the results depend on the processing

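Of 44 alternative counts, 31 stayed within 1.5 times the value reported and 13 did not. With windows from 500 bp upstream the pooled promoter count was 14 (16.9% of homeobox genes, against 18.9% of all genes) and the count with overlapping peaks of both replicates 8 (9.64%, against 11.5%). With the stronger 50% of the peaks the thresholded promoter count was 0 (against 0.401% of all genes), the pooled promoter count 10 (12%, against 14.1%), the thresholded gene-body count 0 (against 0.16%) and the pooled gene-body count 12 (14.5%, against 13.5%). With the 5000 strongest peaks of each replicate 1 gene, ceh-38, had overlapping promoter peaks of both (1.2%, against 3.19%). The count of homeobox genes in the top 10% of both replicates was 2 with nearest 5′ ends only (2.41%, against 3.3%) and 2 without peaks near short RNA genes (2.41%, against 3.35%), ceh-38 and ceh-88 in both settings. It was 0 for the top 5% of genes (against 1.75%) and 4 for the top 20% (4.82%, against 7.97%). With windows from 2000 bp upstream it was 1, ceh-5 in place of ceh-38 (1.2%, against 3.74%). The thresholded gene-body count was 0 with introns only (against 0.295%) and 0 outside the promoter windows (against 0.315%). With intronic summits only the pooled gene-body share was 26.5%, against 13.8%. Homeobox gene bodies were also longer by median, and introns made up 65.75% of their length, against 53.7% over all genes. The difference was not tested.

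Leaving out a replicate meant using as many of the strongest peaks of the other replicate as the list held. The thresholded promoter and gene-body counts were then 1 each way, but the gene was unc-42 without replicate 1 and ceh-38 without replicate 2. The pooled promoter count ran from 21 (25.3%, against 24.4% of all genes) to 22 (26.5%, against 23.5%) and the pooled gene-body count from 25 (30.1%, against 25.7%) to 31 (37.3%, against 26.6%). No paired analysis was possible because there was 1 group. Depth is unknown, and with 83 members a share of a few percent rests on single genes.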
